A study of Mus musculus with 12 samples.

Results

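The levels of 109 genes for enzymes that act on foreign chemicals, aldehydes and glutathione were compared between gastric cancer tumorspheres of 4 groups, labelled control, knockout of *Nf2*, knockout of *Rasa1* and knockout of both. The genes were chosen by symbol alone from the 18926 genes of the deposited tables, as protein-coding members of 10 enzyme families and 5 single genes. They were 17 aldehyde dehydrogenases (Aldh), 13 aldo-keto reductases (Akr), 24 cytochromes P450 (Cyp), 3 flavin monooxygenases (Fmo), 4 carboxylesterases (Ces), 12 UDP-glucuronosyltransferases (Ugt), 5 sulfotransferases (Sult), 19 glutathione S-transferases (Gst), 3 microsomal glutathione S-transferases (Mgst) and 4 glutathione peroxidases (Gpx), with *Nqo1*, *Hmox1*, *Gclc*, *Gclm* and *Srxn1*. RefSeq holds 237 protein-coding mouse genes whose symbols meet the same rule. The tables hold genes with at least 1 count in every library, and the other 128 were not analysed here. All 109 genes passed the filter on low counts and were among the 18053 genes tested.

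Cells dispose of foreign and reactive molecules in steps. P450s, flavin monooxygenases, carboxylesterases, aldo-keto reductases and aldehyde dehydrogenases first oxidize, reduce or hydrolyse a compound, and transferases then attach glucuronic acid, sulfate or glutathione so that it can be exported. Glutathione is made by the synthetase of *Gss* from a dipeptide that the ligase of *Gclc* and *Gclm* supplies, and it is spent by glutathione peroxidases and transferases, and many of these genes are known targets of the transcription factor NRF2, which KEAP1 holds in check. In the gut and liver these enzymes are a mark of mature epithelium, and several aldehyde dehydrogenases also make retinoic acid or serve folate and proline metabolism.

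S1 is a cell line from a gastric cancer of a ChetPS mouse, which was heterozygous for a floxed *Cdh1* and homozygous for floxed *Trp53* and *Smad4*. All 4 groups carried Cas9, and the knockouts were made with lentiviral guides against *Nf2* (which encodes Merlin, an activator of the Hippo pathway), *Rasa1* (a GTPase-activating protein of RAS) or both, while controls had a non-targeting guide or the vector backbone. Cells that survived antibiotic selection were used as a pool, and the labels call the cells monolayer cells although the series describes tumorspheres. The medium of all groups was either one with N-acetylcysteine, an antioxidant and a source of cysteine for glutathione, or a commercial tumorsphere medium. Each group had 3 libraries with between 43818139 and 96674463 counts. The study calls the points of its principal component plot of these RNA profiles technical replications, so p-values measure only the spread between these libraries, which may be technical.

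The targeted genes were examined first. *Nf2* was at 58.1, 61.0 and 55.4 TMM-scaled CPM (counts scaled to library size) in the control libraries and at 14.3, 13.2 and 13.2 CPM in the *Nf2*-KO libraries. It was at 11.6, 11.95 and 12.1 CPM in the libraries labelled *Rasa1*-KO, which is against their label, and at 62.6, 57.6 and 56.4 CPM in those labelled double-KO, also against the label. *Rasa1* was at 60.5, 74.9 and 78.5 CPM in control, 97.2, 101 and 97.2 CPM in *Nf2*-KO, 34.5, 30.4 and 30.8 CPM in labelled *Rasa1*-KO, and 17.7, 20.6 and 23.3 CPM in labelled double-KO. The names of the deposited tables likewise exchange these 2 groups. The groups are therefore called *Nf2*-KO, labelled *Rasa1*-KO and labelled double-KO throughout, and each direction below rests on the labels as they stand. With both labels exchanged, every value of labelled *Rasa1*-KO becomes that of double-KO and the reverse.

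**Figure D1:**
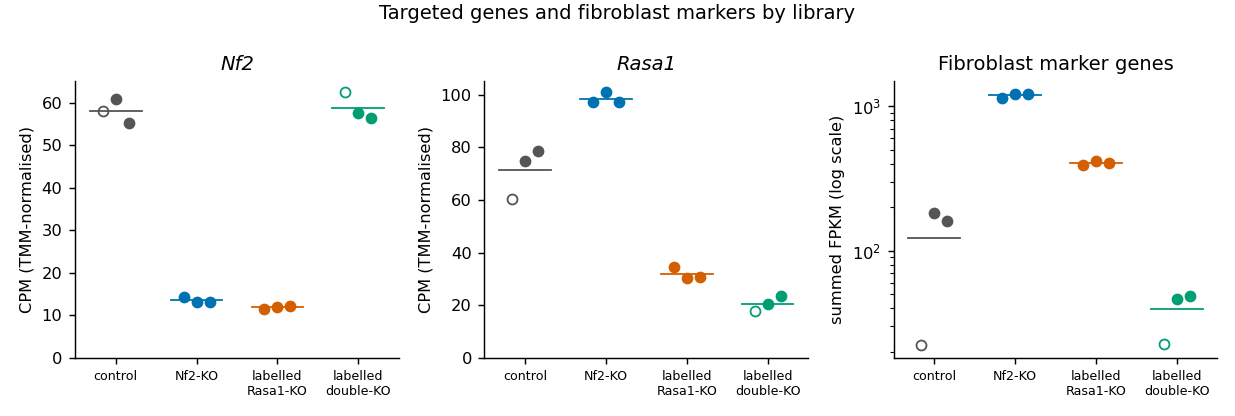
Level of *Nf2* and *Rasa1* in CPM (TMM-normalised) and the summed FPKM of 5 fibroblast marker genes on a log scale, in each of the 12 libraries, with the mean of each group as a line. Open circles are the 2 libraries whose table names carry no number. *Nf2* is low in *Nf2*-KO and labelled *Rasa1*-KO, *Rasa1* is low in both labelled *Rasa1*-KO and labelled double-KO, and the fibroblast sum runs from 22.2 FPKM in 1 control library to over 1000 in all *Nf2*-KO libraries.

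A pair of libraries stood apart from the rest of their groups. They were the control library without a number and labelled double-KO replicate 1, whose tables both carry no number, and across genes their deviations from the group means had a correlation of 0.626. Markers of other cell types were read beside this, in FPKM, fragments per kilobase scaled to mapped reads. All 5 epithelial markers were in the tables, and their sum was 3557, 2709 and 2139 FPKM in control, 2837, 2884 and 3067 in *Nf2*-KO, 4094, 4057 and 4157 in labelled *Rasa1*-KO, and 3877, 3464 and 3569 in labelled double-KO. The keratin gene *Krt8*, between 840 and 1758 FPKM, was the most abundant of them in every library. *Epcam* fell by 2.63, 1.55 and 0.84 on the log2 scale in the 3 groups (edgeR adjusted p = 1.0e-06, 5.6e-05 and 0.017), and *Cdh1* by 2.09 in *Nf2*-KO and 1.57 in labelled *Rasa1*-KO (adjusted p = 2.2e-06 and 2.5e-05). The keratins went the other way in labelled *Rasa1*-KO, where *Krt8*, *Krt18* and *Krt19* rose by 0.64, 0.83 and 0.70 (adjusted p = 0.033, 0.0061 and 0.004), and *Krt19* rose by 0.72 in labelled double-KO (adjusted p = 0.018).

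All 5 fibroblast markers were in the tables, and their sum was 22.2, 183 and 160 FPKM in control, 1145, 1221 and 1225 in *Nf2*-KO, 392, 421 and 407 in labelled *Rasa1*-KO, and 22.7, 46.5 and 48.5 in labelled double-KO. *Col3a1*, a fibrillar collagen, was at 6.31, 140 and 112 FPKM in control and 1025, 1108 and 1120 FPKM in *Nf2*-KO, where it was the most abundant of them. *Col1a1*, *Col1a2*, *Col3a1* and *Pdgfrb* rose in *Nf2*-KO and labelled *Rasa1*-KO, but *Dcn* fell in all 3 knockout groups.

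Of the 4 hepatocyte markers, 3 were in the tables, with a sum of 7.63, 5.5 and 4.71 FPKM in control, 0.772, 1.10 and 0.908 in *Nf2*-KO, 1.89, 1.37 and 1.08 in labelled *Rasa1*-KO, and 5.98, 3.33 and 3.76 in labelled double-KO. Their level was low throughout, none over 3.28 FPKM, and both groups with low *Nf2* were below control. *Ttr* fell by 4.01 and 3.31 there (adjusted p = 6.2e-04 and 0.0019), *Alb* by 2.12 and 3.66 (adjusted p = 8.9e-04 and 4.2e-05), and *Apoa1* by 2.25 in *Nf2*-KO (adjusted p = 0.001). Of the 5 enterocyte markers 2 were in the tables and moved apart. *Vil1* fell by 1.52, 0.90 and 0.78 in the 3 groups (adjusted p = 1.0e-06, 6.3e-05 and 0.0017), while *Cdx2* rose by 1.67 and 1.72 in *Nf2*-KO and labelled *Rasa1*-KO (adjusted p = 4.3e-06 and 5.5e-06), and their sum was between 18.6 and 32.7 FPKM in the 12 libraries.

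Of the 3 blood cell markers 2 were in the tables. The leukocyte gene *Ptprc* did not exceed 0.0971 FPKM, but *Cd68*, a lysosomal protein of macrophages, was between 4.07 and 16.2 FPKM and rose by 1.02 in *Nf2*-KO and 1.58 in labelled *Rasa1*-KO (adjusted p = 0.0091 and 7.2e-04). The gastric markers were low, with 2 of 4 pit, 1 of 2 neck, 1 of 2 parietal and 0 of 3 chief cell genes in the tables. The pit gene *Muc5ac* did not exceed 0.693 FPKM and fell in all 3 groups, while *Tff1*, also of pit cells, reached 4.32 FPKM and rose by 2.25 in labelled *Rasa1*-KO (adjusted p = 0.017). The endothelial sum did not exceed 0.390 FPKM. Several of these markers moved in the same groups as the enzyme genes described below, and their part in those results was not tested. In bulk RNA, fewer cells of a kind and less RNA per cell cannot be told apart.

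Enzyme genes fell more often than they rose in both groups with low *Nf2*. Of the 109 genes, 54 fell and 12 rose in *Nf2*-KO against control at an adjusted p under 0.05, or 49.5% and 11%, while 22.2% of all genes tested fell and 20.6% rose. In labelled *Rasa1*-KO 41 fell and 15 rose, or 37.6% and 13.8%, beside 22.2% and 19.7% of all genes. In labelled double-KO 15 fell and 8 rose, or 13.8% and 7.34%, beside 2.46% and 4% of all genes. The median log2 fold change of the 109 genes was -0.64, -0.44 and -0.24 in the 3 groups, and that of all genes -0.07, -0.08 and -0.04. Over the 4 groups, 70 of the 109 genes were called by the F test, or 64.2% beside 46.3% of all genes. The 3 comparisons share the control libraries. In the table names, control and labelled double-KO each have 1 library without a number and the numbers 1 and 2. Both groups with low *Nf2* have the numbers 1, 2 and 3. Whether the 2 sets were handled apart is not stated, and such a difference was not tested. It cannot be told apart from low *Nf2* in the comparisons of those groups with control.

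Without the 2 libraries that stood apart, 60 genes fell and 25 rose in *Nf2*-KO, 49 fell and 28 rose in labelled *Rasa1*-KO, and 30 fell and 16 rose in labelled double-KO. In that fit of 18169 genes, 33.9%, 33.4% and 12.8% of all genes fell, and 55%, 45% and 27.5% of the enzyme genes, while 33%, 32.5% and 17.1% of all genes rose, and 22.9%, 25.7% and 14.7% of the enzyme genes. The count of 23 called in labelled double-KO became 45 without the unnumbered control library alone. It was 25 without labelled double-KO replicate 1 alone. When the labelled double-KO libraries and the controls alone were fitted, 3 enzyme genes were called, or 2.75%, beside 18 of 17642 genes, or 0.102%. They were *Akr1b7*, *Fmo2* and *Ugt2b35*, and every other call among the 109 genes in labelled double-KO against control was lost in that fit. Over all genes, 1166 calls became 18. Calls of genes outside the 109 in labelled double-KO, given above and below, rest on the fit of all 4 groups. Their own values in the fit of only those 2 groups are not given. *Fmo2* was singled out for its fall when the genes were chosen, so its calls in these counts are no test of that fall. The corresponding fits of the other groups lost some calls of single genes given below. In *Nf2*-KO these were the calls of *Ces1g*, *Gstm2*, *Aldh1a3* and *Cyp1a1*. In labelled *Rasa1*-KO they were those of *Aldh3a1*, *Gstp1*, *Gpx4* and *Cyp1a1*. Whether the call of *Akr1b3* in labelled *Rasa1*-KO was kept in such a fit is not given here. With the numbers of the table names as a block, 28 fell and 10 rose in labelled double-KO, or 25.7% and 9.17%, beside 5.82% and 8.03% of all genes. These numbers are not shown to pair libraries, so calls gained under this block, here and below, are no added evidence. All 23 genes kept their call under this block and 15 gained one, among them *Sult1a1* (adjusted p = 1.0e-04), *Cyp1b1* (adjusted p = 0.0046), *Ugt1a7c* (adjusted p = 0.018) and *Ces2g* (adjusted p = 0.044), whose values without the block are given below. By the study's rule, which asks for a 3-fold change and an unadjusted p under 0.05, 37 enzyme genes were called in *Nf2*-KO, 33 of them lower, where 11.4% of all genes were. In labelled *Rasa1*-KO 28 were called, 23 of them lower, beside 9.27% of all genes, and in labelled double-KO 9, with 7 lower, beside 2.03%.

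**Figure D2:**
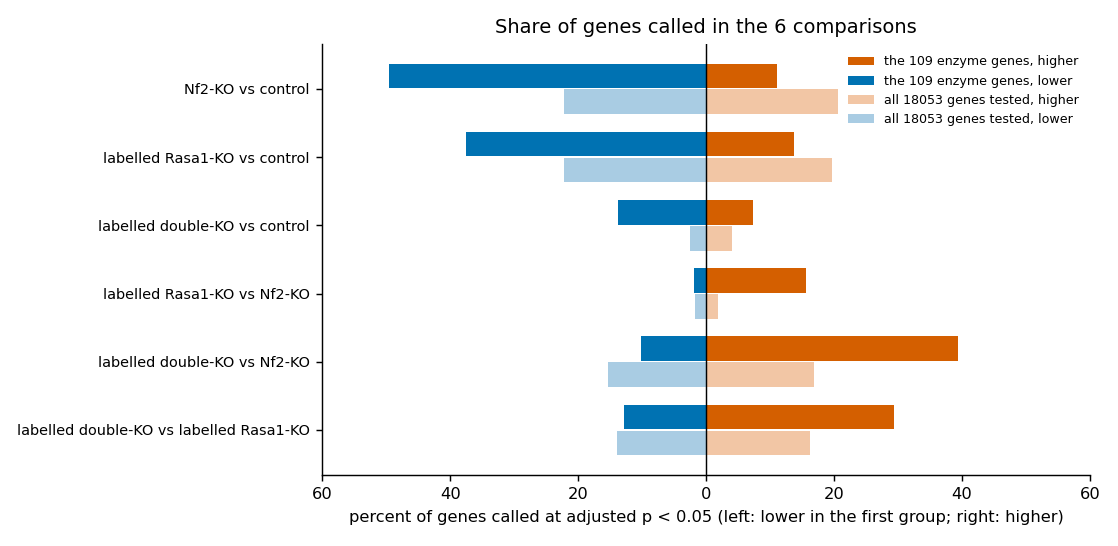
Percent of genes called at adjusted p under 0.05 in the 6 comparisons, to the left for genes lower and to the right for genes higher in the first group named. Dark bars are the 109 enzyme genes and pale bars all 18053 genes tested. The lower bar of the enzyme genes is the longer of the pair in all 3 comparisons with control, at 49.5%, 37.6% and 13.8%.

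**Figure D3:**
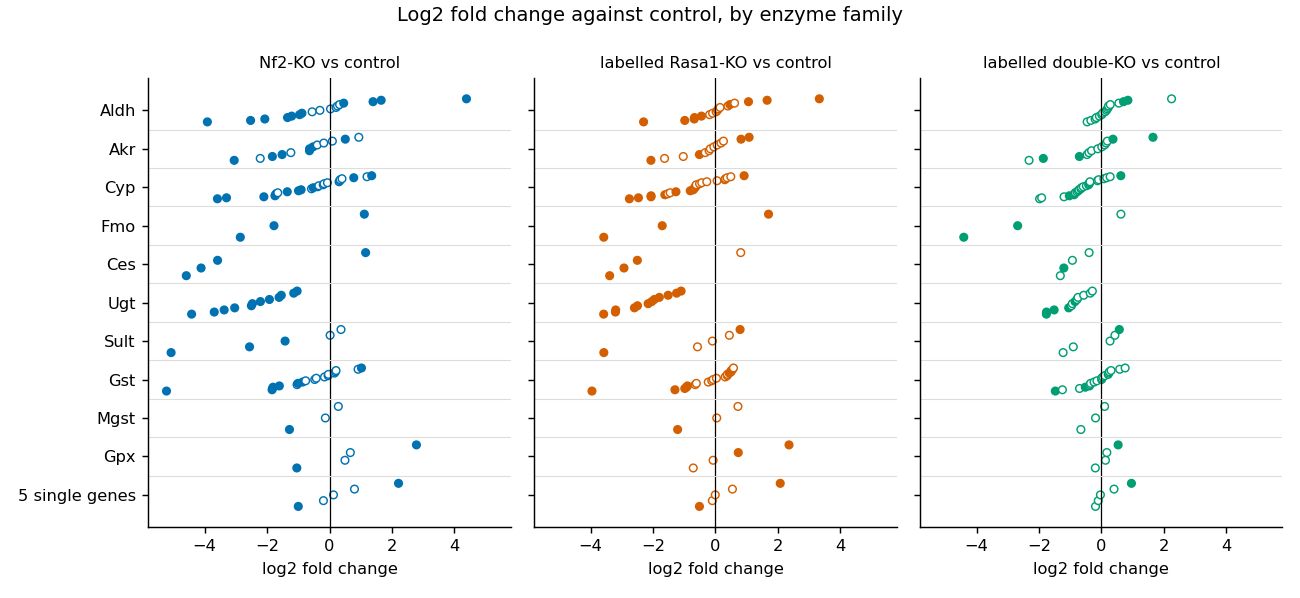
Log2 fold change against control of each of the 109 genes, by family, in *Nf2*-KO, labelled *Rasa1*-KO and labelled double-KO. Filled points were called at adjusted p under 0.05 and open points were not. All 12 Ugt genes lie left of 0 in the 3 panels, while the Aldh, Cyp, Gst and Gpx families spread to both sides.

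The glucuronosyltransferases moved together. All 12 fell in *Nf2*-KO and all 12 in labelled *Rasa1*-KO, with median log2 fold changes of -2.34 and -2.10, and 5 of 12 fell in labelled double-KO, where the median was -0.89. Of all genes, 22.2%, 22.2% and 2.46% fell in these comparisons. *Ugt2b34*, the most abundant of the family, was at 1047, 518 and 542 CPM in control and at 128, 131 and 121 CPM in *Nf2*-KO. It was at 210, 200 and 196 CPM in labelled *Rasa1*-KO and at 430, 361 and 381 CPM in labelled double-KO. No library of a knockout group reached the lowest control library, and the 4 groups did not overlap. The fall was 2.47 ± 0.23 (SE) in *Nf2*-KO (adjusted p = 7.4e-06), 1.80 ± 0.23 in labelled *Rasa1*-KO (adjusted p = 9.1e-05) and 0.85 ± 0.22 in labelled double-KO (adjusted p = 0.043) on the log2 scale. The call in labelled double-KO was lost without any single library of that group, and the value was -0.44 without the unnumbered control library and -0.51 without the 2 libraries that stood apart, with an adjusted p of 5.5e-04.

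*Ugt2b35* fell further. It was at 115, 80.2 and 72.2 CPM in control, 3.38, 4.73 and 4.40 CPM in *Nf2*-KO, 9.93, 8.55 and 10.54 CPM in labelled *Rasa1*-KO, and 26.5, 24.6 and 27.8 CPM in labelled double-KO. These values gave log2 fold changes of -4.42 ± 0.20 (SE), -3.20 ± 0.19 and -1.76 ± 0.18, with adjusted p of 3.8e-08, 4.5e-07 and 3.5e-04. *Ugt2b36* fell by 3.38, 2.60 and 1.52, the last of which was 0.92 without the unnumbered control library, and *Ugt2b5*, of which 24.7% of 100-base windows are shared with Ugt2b38 or other transcripts, by 3.69, 3.58 and 1.76. These 4 genes lie next to each other at chr5:86889770-87140340 (GRCm38.p6).

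The other 8 are the Ugt1a genes at chr1:88055411-88220002, which are known to have first exons of their own and the remaining exons in common. Between 57.2% and 100% of their 100-base windows occur in another gene's transcript, so their reads cannot be assigned with certainty and they do not count as 8 separate results. *Ugt1a7c*, the most abundant of them as listed, was at 484, 264 and 214 CPM in control, 75.5, 91.6 and 86.2 CPM in *Nf2*-KO, 117, 110 and 109 CPM in labelled *Rasa1*-KO, and 223, 168 and 181 CPM in labelled double-KO. It fell by 1.93 ± 0.25 (SE) in *Nf2*-KO and by 1.52 ± 0.25 in labelled *Rasa1*-KO on the log2 scale (adjusted p = 8.8e-05 and 5.5e-04). Its value of -0.75 ± 0.24 in labelled double-KO did not pass the test (adjusted p = 0.095), and its values overlapped those of the control libraries. Per length, the family's summed level in control was 437 ± 148 FPKM (SD, n = 3). It was 103 ± 6.07 FPKM in *Nf2*-KO, 128 ± 2.85 in labelled *Rasa1*-KO and 241 ± 24.0 in labelled double-KO. *Ugdh*, which makes the UDP-glucuronic acid these enzymes use and was not a member, rose by 0.95, 1.11 and 0.53 on the log2 scale in the 3 groups (adjusted p = 1.3e-05, 6.0e-06 and 0.0072). As for the other genes outside the 109, the call in labelled double-KO rests on the fit of all 4 groups.

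The carboxylesterases of the Ces2 group, which cleave ester and amide drugs, fell in both groups with low *Nf2*. *Ces2g* was at 118, 113 and 107 CPM in control, 9.93, 8.50 and 9.62 CPM in *Nf2*-KO, 11.1, 11.8 and 9.23 CPM in labelled *Rasa1*-KO, and 103, 74.0 and 78.9 CPM in labelled double-KO. *Nf2*-KO and labelled *Rasa1*-KO overlapped each other far below control, while all labelled double-KO libraries were between these and the control libraries. The log2 fold changes were -3.59 ± 0.15 (SE), -3.39 ± 0.15 and -0.39 ± 0.14, of which the first pair passed the test (adjusted p = 2.5e-08 and 6.7e-08) and the last did not (adjusted p = 0.12). *Ces2a* fell by 4.59 in *Nf2*-KO and 2.93 in labelled *Rasa1*-KO, and *Ces2c* by 4.12 and 2.50. *Ces2a* was called in labelled double-KO too, at -1.20 ± 0.32 (adjusted p = 0.046), a call that was lost without any single labelled double-KO library. These 3 genes are neighbours at chr8:104734003-104969537, and 10.8% and 16.0% of the 100-base windows of *Ces2a* and *Ces2c* occur in pseudogenes or other transcripts. *Ces1g*, of the other carboxylesterase group, was at 0.489, 1.76 and 1.94 CPM in control and 3.02, 3.24 and 3.00 CPM in *Nf2*-KO, with a log2 fold change of 1.16 ± 0.39 (adjusted p = 0.031) that was not called without any single *Nf2*-KO library and was 0.74 without the unnumbered control library.

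The sulfotransferases did not move as one. *Sult1a1*, which sulfates phenols, was at 30.7, 77.8 and 70.9 CPM in control, 1.87, 1.65 and 1.79 CPM in *Nf2*-KO, 5.14, 5.13 and 4.75 CPM in labelled *Rasa1*-KO, and 12.3, 31.8 and 32.5 CPM in labelled double-KO. The 2 libraries that stood apart were the lowest of their groups. It fell by 5.08 ± 0.43 (SE) in *Nf2*-KO (adjusted p = 3.5e-06) and by 3.58 ± 0.40 in labelled *Rasa1*-KO (adjusted p = 3.9e-05), and its value in labelled double-KO was -1.23 ± 0.36 (adjusted p = 0.071). *Sult1d1*, which sulfates catecholamines, was at 30.8, 27.2 and 28.2 CPM in control and 3.96, 5.77 and 4.85 CPM in *Nf2*-KO. In labelled *Rasa1*-KO it was at 29.8, 25.7 and 25.05 CPM and in labelled double-KO at 43.2, 29.2 and 32.0 CPM, so that the *Nf2*-KO libraries alone were low. The direct comparison of labelled *Rasa1*-KO with *Nf2*-KO gave a log2 fold change of 2.47 ± 0.18 (adjusted p = 8.4e-05). *Sult1c2*, the most abundant per length, fell by 1.42 ± 0.29 in *Nf2*-KO (adjusted p = 0.002), and by 0.92 without the unnumbered control library. *Sult2b1*, which sulfates cholesterol and other hydroxysteroids, rose by 0.79 ± 0.15 in labelled *Rasa1*-KO (adjusted p = 0.0017) and was 0.02 ± 0.15 in *Nf2*-KO (adjusted p = 0.93). It rose by 0.57 in labelled double-KO (adjusted p = 0.045), a call that was lost when only those libraries and the controls were fitted. *Papss1* and *Papss2*, which make the sulfate donor, rose in *Nf2*-KO and labelled *Rasa1*-KO, and *Papss2* rose in labelled double-KO as well, by 1.27 (adjusted p = 3.5e-04) beside 0.76 and 0.80 in the former 2.

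**Figure D4:**
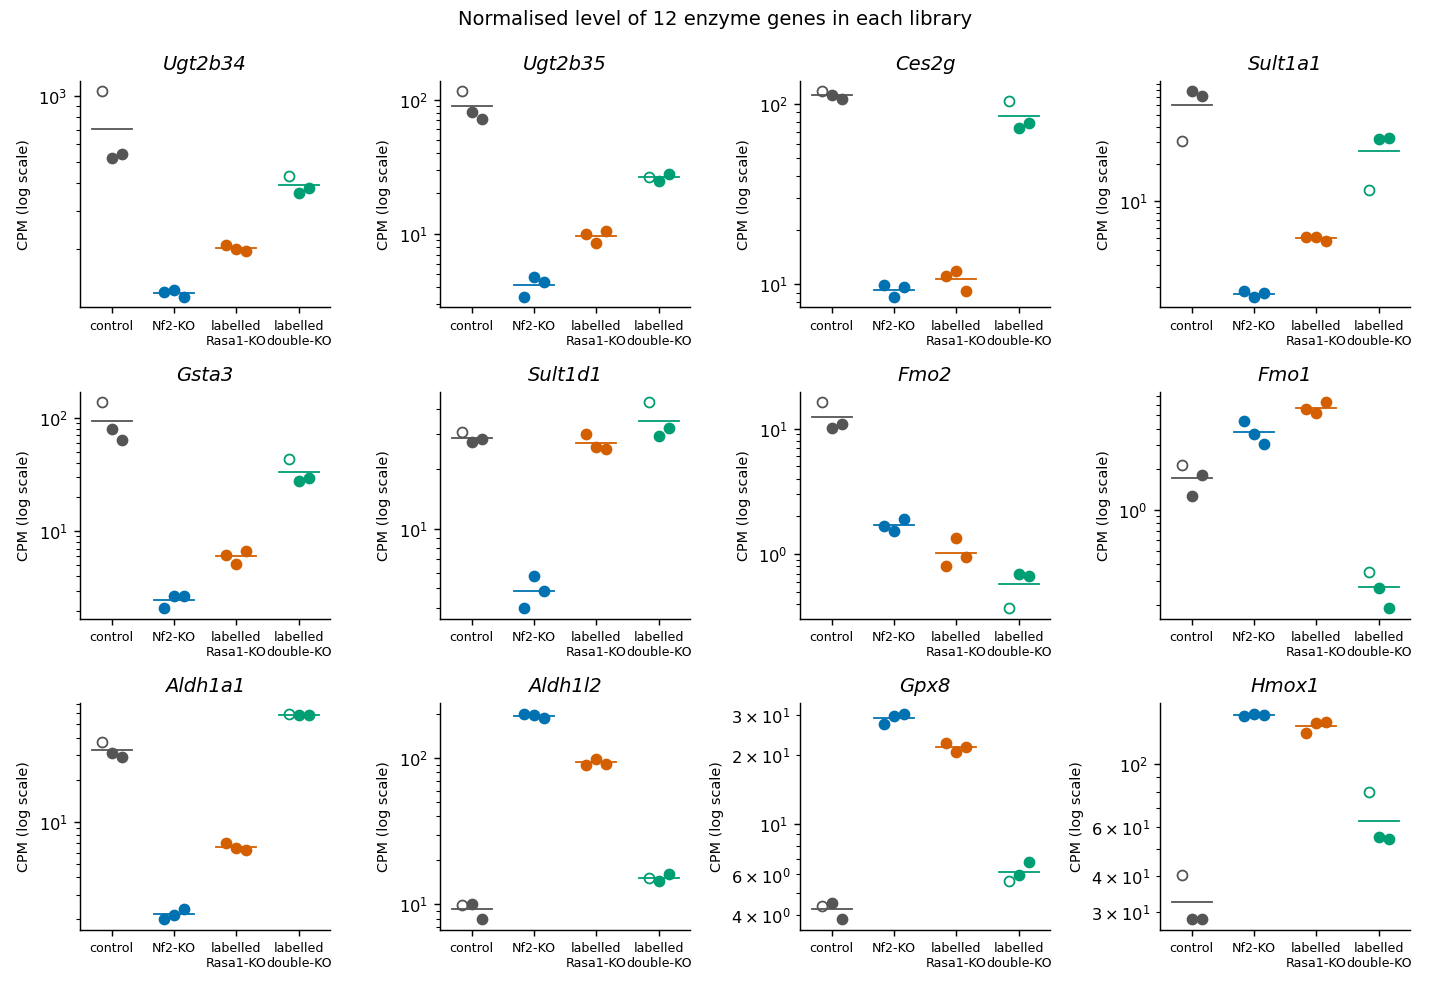
Normalised level in CPM, on log axes with a range of their own, of 12 enzyme genes in each library, with the group mean as a line. Open circles are the 2 libraries whose table names carry no number. *Ugt2b34*, *Ugt2b35*, *Ces2g*, *Sult1a1* and *Gsta3* are lowest in *Nf2*-KO, *Sult1d1* is low in *Nf2*-KO alone, *Fmo2* is low in all knockout groups, and *Fmo1* and *Aldh1a1* in labelled double-KO lie on the other side of control from the other knockout groups.

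Of the 19 glutathione S-transferases, 7 fell and 1 rose in *Nf2*-KO, 5 fell and 3 rose in labelled *Rasa1*-KO, and 2 fell in labelled double-KO. Of all genes, 22.2% fell and 20.6% rose in *Nf2*-KO, 22.2% and 19.7% in labelled *Rasa1*-KO, and 2.46% and 4% in labelled double-KO. With the block by table names, *Gstm1* and *Gstm5* were called lower in labelled double-KO as well (adjusted p = 0.0023 and 0.04), where 5.82% of all genes fell. The alpha-class gene *Gsta3*, which conjugates glutathione and also isomerizes steroids, was at 137, 79.9 and 63.3 CPM in control and 2.09, 2.71 and 2.68 CPM in *Nf2*-KO. It was at 6.22, 5.15 and 6.66 CPM in labelled *Rasa1*-KO and 43.7, 27.6 and 29.2 CPM in labelled double-KO, so the 4 groups were in separate ranges. Its fall of 5.22 ± 0.32 (SE) in *Nf2*-KO (adjusted p = 3.1e-07) was the largest of the 109 genes in any of the 3 comparisons with control. It fell by 3.96 ± 0.30 in labelled *Rasa1*-KO (adjusted p = 2.2e-06) and by 1.48 ± 0.27 in labelled double-KO (adjusted p = 0.0075, and 0.14 when only those 2 groups were fitted).

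*Gsta4*, which acts on the lipid aldehyde 4-hydroxynonenal, was at 398, 278 and 235 CPM in control, 80.9, 87.2 and 91.8 CPM in *Nf2*-KO, 161, 146 and 155 CPM in labelled *Rasa1*-KO, and 278, 265 and 281 CPM in labelled double-KO. It fell by 1.81 ± 0.16 in *Nf2*-KO and by 0.98 ± 0.16 in labelled *Rasa1*-KO (adjusted p = 5.6e-06 and 5.5e-04), and was -0.14 ± 0.16 in labelled double-KO (adjusted p = 0.66). *Gstt3*, *Gstt1* and *Gstm5* also fell in both groups with low *Nf2*, and *Gstm2* rose by 1.02 in *Nf2*-KO. *Gstp1*, at a mean of between 196 and 267 FPKM in each group, had a log2 fold change of 0.16 ± 0.17 in *Nf2*-KO (adjusted p = 0.48) and 0.51 ± 0.17 in labelled *Rasa1*-KO (adjusted p = 0.036). The latter call was lost without any single library of labelled *Rasa1*-KO and without either numbered control library, and the value was 0.79 without the unnumbered control library and 0.33 without control replicate 2. In sequence, 52.8% of the gene's 100-base windows occur in another transcript, most often of *Gstp2*. *Mgst1*, the membrane-bound transferase that also reduces lipid peroxides, fell by 1.28 ± 0.21 and 1.21 ± 0.21 in *Nf2*-KO and labelled *Rasa1*-KO (adjusted p = 5.2e-04 and 9.0e-04), and *Mgst2* and *Mgst3* were not called in any of the 3 comparisons with control.

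Sequence upstream of the genes was searched because members of these families are known NRF2 targets. RefSeq promoters of GRCm38.p6, 250 bases before to 50 bases after a start site, were at hand for 93 of the 109 genes, in 112 promoters. The core of the antioxidant response element, TGACNNNGC on either strand, occurred in 8.93% of these promoters and in 12.4% of all 32851 promoters. The 10 genes that held it were *Akr1c19*, *Aldh9a1*, *Cyp2j6*, *Cyp4f14*, *Gclm*, *Gsta3*, *Gstm5*, *Gstm7*, *Mgst1* and *Srxn1*. The 60 bases around the core are shown for 4 glutathione genes among them that fell in both groups with low *Nf2*, a choice made for their values, with the core in capitals and the gene's own strand read 5′ to 3′, at chr1:21240438-21240497 (+) for *Gsta3*, chr3:107895786-107895845 (+) for *Gstm5*, chr3:122245397-122245456 (+) for *Gclm* and chr6:138140445-138140504 (+) for *Mgst1*.
Gsta3: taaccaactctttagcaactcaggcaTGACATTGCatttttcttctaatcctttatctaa
Gstm5: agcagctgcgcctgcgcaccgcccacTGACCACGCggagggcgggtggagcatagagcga
Gclm: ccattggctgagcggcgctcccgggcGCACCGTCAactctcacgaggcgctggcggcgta
Mgst1: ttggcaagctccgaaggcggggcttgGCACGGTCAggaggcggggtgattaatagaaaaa
The core begins 121, 42, 134 and 56 bases before the start site, and it is on the other strand in *Gclm* and *Mgst1*. The middle letters, which the search left free, differ between the genes. The match is a description of these letters and not a bound site.

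Flavin monooxygenases oxidize nitrogen and sulfur in drugs, and the 3 genes took 3 courses. *Fmo2* was at 16.1, 10.1 and 10.8 CPM in control, 1.67, 1.53 and 1.904 CPM in *Nf2*-KO, 0.804, 1.34 and 0.950 CPM in labelled *Rasa1*-KO, and 0.372, 0.696 and 0.677 CPM in labelled double-KO. All 9 knockout libraries were far below the lowest control library, in the falling order *Nf2*-KO, labelled *Rasa1*-KO, labelled double-KO without overlap. The log2 fold changes were -2.86 ± 0.29 (SE) in *Nf2*-KO, -3.58 ± 0.30 in labelled *Rasa1*-KO and -4.41 ± 0.31 in labelled double-KO. *Fmo2* was singled out when the genes were chosen because of its fall, so these values are a description. Its calls within the counts above are no test of them. The level was low throughout, with a mean of 2.83 FPKM in control.

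*Fmo1* was at 2.13, 1.28 and 1.81 CPM in control, 4.58, 3.65 and 3.10 CPM in *Nf2*-KO, 5.54, 5.22 and 6.24 CPM in labelled *Rasa1*-KO, and 0.350, 0.268 and 0.188 CPM in labelled double-KO. The gene rose in *Nf2*-KO by 1.11 ± 0.25 (adjusted p = 0.0039) and by 1.70 ± 0.25 in labelled *Rasa1*-KO (adjusted p = 3.0e-04), but fell by 2.68 ± 0.28 in labelled double-KO (adjusted p = 3.8e-04, and 0.073 when only those 2 groups were fitted). *Fmo5*, an enzyme that oxidizes ketones, was at 0.988, 1.93 and 1.69 CPM in control and between 0.274 and 0.615 CPM in the 6 libraries of *Nf2*-KO and labelled *Rasa1*-KO. It fell by 1.78 and 1.71 there (adjusted p = 0.0013 and 0.0019), and labelled double-KO, at 2.18, 2.49 and 2.42 CPM, was above labelled *Rasa1*-KO by 2.33 ± 0.34 (adjusted p = 4.4e-04).

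The aldehyde dehydrogenases held the largest rise and some of the largest falls. In *Nf2*-KO 7 of 17 fell and 4 rose, in labelled *Rasa1*-KO 5 fell and 4 rose, and in labelled double-KO 2 rose and 0 fell, beside 22.2% falling and 20.6% rising of all genes in *Nf2*-KO, 22.2% and 19.7% in labelled *Rasa1*-KO, and 2.46% and 4% in labelled double-KO. With the block by table names, *Aldh1a3* and *Aldh1l1* were called higher in labelled double-KO as well (adjusted p = 0.0058 and 0.019), where 8.03% of all genes rose. *Aldh1l2*, the mitochondrial 10-formyltetrahydrofolate dehydrogenase, was at 9.89, 10.1 and 7.90 CPM in control, 202, 197 and 187 CPM in *Nf2*-KO, 90.4, 98.7 and 91.7 CPM in labelled *Rasa1*-KO, and 15.2, 14.4 and 16.1 CPM in labelled double-KO. The 4 groups were in separate ranges. It rose by 4.39 ± 0.12 (SE), 3.33 ± 0.12 and 0.71 ± 0.11 on the log2 scale (adjusted p = 1.8e-09, 1.2e-08 and 0.0026, the last 0.16 when only those 2 groups were fitted). Its cytosolic counterpart *Aldh1l1* was at 26.2, 21.2 and 13.9 CPM in control, 62.5, 64.0 and 67.0 CPM in *Nf2*-KO, and 65.3, 65.0 and 63.1 CPM in labelled *Rasa1*-KO, a rise of 1.65 ± 0.21 in each (adjusted p = 8.0e-05 and 1.0e-04). *Aldh18a1*, the first enzyme of proline synthesis from glutamate, rose by 1.39 ± 0.10 and 1.06 ± 0.10 (adjusted p = 1.3e-06 and 1.6e-05) and was 0.16 ± 0.10 in labelled double-KO (adjusted p = 0.4).

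*Aldh1a1*, a retinaldehyde dehydrogenase and maker of retinoic acid that is also used as a marker of stem-like cells, was at 37.5, 31.1 and 29.4 CPM in control and 1.99, 2.13 and 2.38 CPM in *Nf2*-KO. It was at 7.06, 6.49 and 6.31 CPM in labelled *Rasa1*-KO and at 59.9, 58.1 and 58.5 CPM in labelled double-KO, where all 3 libraries were above all controls. It fell by 3.91 ± 0.13 and 2.30 ± 0.12 in *Nf2*-KO and labelled *Rasa1*-KO (adjusted p = 5.1e-09 and 1.4e-07) and rose by 0.85 ± 0.11 in the last (adjusted p = 0.0014, and 0.095 when only those 2 groups were fitted). *Aldh1a7* was at 5.38, 3.17 and 3.00 CPM in control and between 0.882 and 0.963 CPM in *Nf2*-KO, a fall of 2.07 ± 0.31 (adjusted p = 2.6e-04). *Aldh1a3* was uneven within groups, at 0.159, 4.15 and 4.01 CPM in control, 0.282, 0.490 and 0.650 CPM in *Nf2*-KO, 2.69, 2.65 and 2.39 CPM in labelled *Rasa1*-KO, and 5.30, 15.9 and 17.9 CPM in labelled double-KO. Its fall of 2.53 ± 0.85 in *Nf2*-KO (adjusted p = 0.031) became 3.10 once the control library standing apart was left out, and was not called without any other single library. Against control the value in labelled double-KO was 2.25 (adjusted p = 0.12), and 2.73 with the block by table names (adjusted p = 0.0058). Labelled double-KO was above *Nf2*-KO by 4.78 ± 0.90 (adjusted p = 0.0018).

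**Figure D5:**
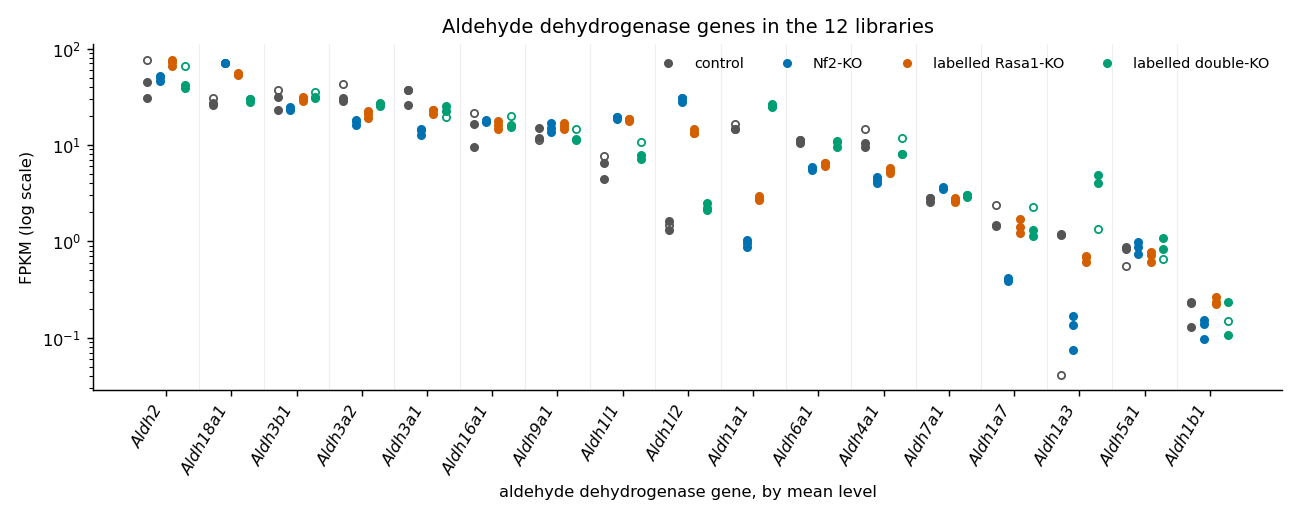
Level per length in FPKM, on a log scale, of the 17 aldehyde dehydrogenase genes in the 12 libraries, ordered by mean level and coloured by group. Open circles are the 2 libraries whose table names carry no number. *Aldh1l2* is highest in *Nf2*-KO, at a mean of 29.8 FPKM beside 1.48 FPKM in control, and *Aldh1a1* is lowest there, at 0.956 beside 15.2 FPKM.

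Most other aldehyde dehydrogenases changed less. *Aldh2*, which oxidizes acetaldehyde and was the most abundant per length, had log2 fold changes of 0.03 ± 0.31, 0.61 ± 0.31 and 0.04 ± 0.31 (adjusted p = 0.94, 0.14 and 0.96), and its control libraries ranged from 114 to 322 CPM. *Aldh3a2*, *Aldh4a1*, *Aldh6a1* and *Aldh3a1* fell in *Nf2*-KO and labelled *Rasa1*-KO, by between 0.45 and 1.35 on the log2 scale. Among 10 measured genes of retinoid handling outside the family, 4 rose and 3 fell in *Nf2*-KO, beside 20.6% and 22.2% of all genes, with a median log2 fold change of 0.14. The retinol dehydrogenase *Rdh11* rose by 1.58 ± 0.14 (adjusted p = 4.7e-06). No gene of this list was called in labelled double-KO, where 4% of all genes rose and 2.46% fell, too few to expect calls among 10 genes.

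Among the 13 aldo-keto reductases, 6 fell and 1 rose in *Nf2*-KO, and 2 fell and 2 rose in each of the other groups. The shares of all genes that fell and rose were 22.2% and 20.6% in *Nf2*-KO, 22.2% and 19.7% in labelled *Rasa1*-KO, and 2.46% and 4% in labelled double-KO. With the block by table names, *Akr1c13* was called lower in labelled double-KO as well (adjusted p = 0.044), where 5.82% of all genes fell. *Akr1b7*, which reduces isocaproaldehyde and other aldehydes, was at 44.8, 34.4 and 30.0 CPM in control, 4.12, 4.81 and 4.22 CPM in *Nf2*-KO, 8.57, 7.65 and 9.84 CPM in labelled *Rasa1*-KO, and 9.19, 10.8 and 10.0 CPM in labelled double-KO. The control libraries were all higher than any knockout library. It fell by 3.05 ± 0.17 (SE), 2.07 ± 0.16 and 1.86 ± 0.16 (adjusted p = 1.7e-07, 3.0e-06 and 1.3e-04). *Akr1b3*, the aldose reductase, was at 80.2, 70.0 and 47.8 CPM in control and at 383, 124 and 117 CPM in labelled double-KO, where replicate 1 was far above the others. The rise of 1.65 ± 0.38 there (adjusted p = 0.026) was 0.86 without that library (adjusted p = 0.016), and 50.6% of the gene's 100-base windows occur in other transcripts. *Akr1b3* was called higher in labelled *Rasa1*-KO too in the fit of all 4 groups, at 1.08 (adjusted p = 0.039). *Akr1a1*, an aldehyde reductase and the most abundant, was between 197 and 232 FPKM in the group means and was not called in any comparison.

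The cytochromes P450 were mostly low, with a mean under 1 FPKM for 12 of 24. In *Nf2*-KO 11 fell and 2 rose, in labelled *Rasa1*-KO 9 fell and 1 rose, and in labelled double-KO 3 fell and 1 rose, where 22.2%, 22.2% and 2.46% of all genes fell and 20.6%, 19.7% and 4% rose. With the block by table names, *Cyp1a1*, *Cyp1b1*, *Cyp2d26* and *Cyp4f16* were called lower in labelled double-KO as well (adjusted p = 0.0025, 0.0046, 0.0051 and 0.049), where 5.82% of all genes fell. *Cyp1b1*, which hydroxylates estrogens and aromatic hydrocarbons, was at 234, 424 and 497 CPM in control, 162, 154 and 136 CPM in *Nf2*-KO, 127, 132 and 116 CPM in labelled *Rasa1*-KO, and 184, 236 and 252 CPM in labelled double-KO. The control library that stood apart was the lowest of its group and overlapped labelled double-KO. *Cyp1b1* fell by 1.35 ± 0.23 (SE) and 1.62 ± 0.23 (adjusted p = 5.8e-04 and 2.1e-04), and was -0.78 ± 0.22 in labelled double-KO (adjusted p = 0.063). *Cyp2s1*, the most abundant P450 gene together with *Cyp1b1*, rose from 86.0, 89.6 and 79.5 CPM in control to 156, 136 and 146 CPM in *Nf2*-KO, 154, 169 and 160 CPM in labelled *Rasa1*-KO, and 110, 144 and 139 CPM in labelled double-KO. Its log2 fold changes were 0.78, 0.92 and 0.62, each ± 0.11 (adjusted p = 2.0e-04, 7.6e-05 and 0.0073, the last 0.18 when only those 2 groups were fitted). Both of these P450s are known targets of the aryl hydrocarbon receptor, whose gene *Ahr* was -0.11 ± 0.18 in *Nf2*-KO (adjusted p = 0.64), while its target *Tiparp* rose by 1.65, 1.44 and 1.16 in the 3 groups (adjusted p = 3.4e-06, 1.4e-05 and 8.4e-04). *Cyp1a1*, the classical target of this receptor, was at 0.340, 1.61 and 2.50 CPM in control, 0.388, 0.445 and 0.476 CPM in *Nf2*-KO, 0.251, 0.402 and 0.398 CPM in labelled *Rasa1*-KO, and 0.109, 0.535 and 0.477 CPM in labelled double-KO. The control library that stood apart overlapped the knockout groups. *Cyp1a1* fell by 1.75 ± 0.65 in *Nf2*-KO and 2.06 ± 0.67 in labelled *Rasa1*-KO (adjusted p = 0.049 and 0.027), calls that were lost without either numbered control library and without any single library of the group itself, and was -1.98 ± 0.66 in labelled double-KO (adjusted p = 0.11, and 0.0025 with the block by table names). *Por*, the reductase that passes electrons to P450s, rose by 0.70 ± 0.12 in *Nf2*-KO and 0.73 ± 0.12 in labelled *Rasa1*-KO (adjusted p = 8.1e-04 and 7.4e-04). The epithelial regulator *Hnf4a* fell by 1.47 in *Nf2*-KO (adjusted p = 3.6e-05) and by 0.84 in labelled *Rasa1*-KO (adjusted p = 0.0022). Of the 11 measured xenobiotic receptors and electron donors, 3 fell and 2 rose in *Nf2*-KO, beside 22.2% and 20.6% of all genes.

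Among the glutathione peroxidases and the single genes, *Gpx8* and *Hmox1* rose in all 3 groups. *Gpx8*, a peroxidase of the endoplasmic reticulum, was at 4.38, 4.49 and 3.81 CPM in control, 27.4, 29.6 and 30.5 CPM in *Nf2*-KO, 22.6, 20.6 and 21.8 CPM in labelled *Rasa1*-KO, and 5.61, 5.97 and 6.84 CPM in labelled double-KO. It rose by 2.78 ± 0.12 (SE), 2.36 ± 0.12 and 0.54 ± 0.11 (adjusted p = 2.5e-08, 1.2e-07 and 0.017, the last 0.38 when only those 2 groups were fitted). *Hmox1*, which degrades heme, was at 40.6, 28.3 and 28.1 CPM in control, 149, 151 and 150 CPM in *Nf2*-KO, 129, 140 and 141 CPM in labelled *Rasa1*-KO, and 80.0, 55.0 and 54.2 CPM in labelled double-KO. Every knockout library was above every control, and the rises were 2.21 ± 0.18, 2.08 ± 0.18 and 0.96 ± 0.17 (adjusted p = 2.3e-06, 5.6e-06 and 0.0071, the last 0.18 when only those 2 groups were fitted). The lipid peroxide-reducing *Gpx4*, at between 247 and 377 FPKM in the group means, was called in labelled *Rasa1*-KO alone, at 0.73 ± 0.21 (adjusted p = 0.015), and 48.4% of its 100-base windows occur in pseudogenes or other transcripts. *Gpx1*, the cytosolic peroxidase, fell by 1.05 ± 0.28 in *Nf2*-KO (adjusted p = 0.011), and by 0.56 without the unnumbered control library.

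*Gclm*, the modifier subunit of the ligase that supplies the precursor of glutathione, was at 46.9, 53.8 and 61.1 CPM in control, 27.9, 26.9 and 26.0 CPM in *Nf2*-KO, 38.9, 37.5 and 37.0 CPM in labelled *Rasa1*-KO, and 47.3, 46.0 and 48.6 CPM in labelled double-KO. It fell by 1.00 ± 0.10 and 0.51 ± 0.10 (adjusted p = 1.5e-05 and 0.0021) and was -0.19 ± 0.10 in labelled double-KO (adjusted p = 0.32). *Gclc*, the catalytic subunit, was between 179 and 223 CPM in all 12 libraries and had a log2 fold change of -0.19 ± 0.09 in *Nf2*-KO (adjusted p = 0.093), which passed the test under a stricter filter and on the FPKM scale. *Srxn1*, which repairs oxidized peroxiredoxins, was between 27.1 and 39.1 CPM and was not called in any of the 3 comparisons with control. It was called in *Nf2*-KO without the control library that stood apart, at 0.30 (adjusted p = 0.011). *Nqo1*, a quinone reductase that NRF2 is known to drive, was at a mean of between 0.223 and 0.369 FPKM in the 4 groups and was not called.

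Of NRF2 and its 8 partner genes, 3 rose and 2 fell in *Nf2*-KO, with a median log2 fold change of 0.22. *Nfe2l2*, the gene of NRF2, rose by 0.37 ± 0.08 in *Nf2*-KO (adjusted p = 0.0041), and *Keap1* was 0.27 ± 0.16 (adjusted p = 0.2). The small Maf gene *Maff* rose by 1.19, 1.34 and 0.47 in the 3 groups (adjusted p = 1.7e-06, 1.1e-06 and 0.011), and *Bach1*, a repressor of *Hmox1*, fell by 0.87 in *Nf2*-KO and 0.70 in labelled *Rasa1*-KO (adjusted p = 2.5e-05 and 1.7e-04). Of 22 other redox genes linked to NRF2, 6 rose and 5 fell in *Nf2*-KO, 7 rose and 4 fell in labelled *Rasa1*-KO, and 2 rose and 1 fell in labelled double-KO, with medians of -0.01, 0.14 and 0.13. Of all genes tested, 20.6% rose and 22.2% fell in *Nf2*-KO, 19.7% and 22.2% in labelled *Rasa1*-KO, and 4% and 2.46% in labelled double-KO. *Blvrb*, a biliverdin reductase, rose by 1.21, 1.30 and 0.69 in the 3 groups (adjusted p = 1.1e-04, 8.7e-05 and 0.026), and the peroxiredoxin *Prdx5* by 1.04, 1.30 and 0.95 (adjusted p = 0.0041, 0.0011 and 0.033). Of 10 genes of glutathione supply and turnover, 3 rose and 1 fell in *Nf2*-KO, the latter being *Gss*, at -0.69 ± 0.15 (adjusted p = 0.0036). Those that rose included *Chac1*, which breaks down glutathione and is a target of the ATF4 stress response, at 5.09, 5.69 and 4.80 CPM in control and 26.1, 25.2 and 25.6 CPM in *Nf2*-KO, a rise of 2.30 ± 0.17 (adjusted p = 9.8e-07). *Slc7a11*, the cystine transporter, was -0.26 ± 0.16 in *Nf2*-KO (adjusted p = 0.21) and fell by 0.92 ± 0.16 in labelled *Rasa1*-KO (adjusted p = 9.4e-04).

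Other enzymes of the same chemistry and the efflux pumps gave mixed counts. Of 17 further phase I and II enzymes, 8 fell and 5 rose in *Nf2*-KO, 7 fell and 5 rose in labelled *Rasa1*-KO, and 1 fell and 2 rose in labelled double-KO, with medians of -0.24, -0.35 and 0.06. The shares of all genes that fell were 22.2%, 22.2% and 2.46% in these comparisons, and 20.6%, 19.7% and 4% rose. The alcohol dehydrogenase *Adh1* fell in all 3, by 3.78, 2.20 and 2.32 (adjusted p = 6.5e-05, 0.0019 and 0.0092), and the carbonyl reductase *Cbr2* by 2.96 and 1.71 in the first 2 (adjusted p = 1.7e-05 and 7.8e-04). The epoxide hydrolase *Ephx1* rose by 0.83 and 0.79 there (adjusted p = 0.0018 and 0.0027). Of 7 efflux pumps, 4 fell and 2 rose in both *Nf2*-KO and labelled *Rasa1*-KO. *Abcc4* fell by 1.42 and 1.17 (adjusted p = 5.7e-06 and 3.3e-05), and *Abcb1b*, which encodes a P-glycoprotein, rose by 1.21 and 0.75 (adjusted p = 1.4e-04 and 0.0041).

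The TEAD core CATTCC was searched in the same promoters. TEAD factors are the DNA-binding partners of YAP, which Merlin restrains. On either strand this core occurred in 10.7% of the 112 promoters and 14.7% of all promoters. It was in the promoters of 12 genes, *Akr1c12*, *Aldh1a1*, *Aldh6a1*, *Cyp2b10*, *Cyp2j6*, *Gpx8*, *Gstm2*, *Gstm7*, *Sult1a1*, *Sult1b1*, *Sult2b1* and *Ugt1a10*, of which 5 fell and 2 rose in *Nf2*-KO, beside 49.5% and 11% of the 109 genes. Those of *Gpx8*, which rose in all 3 groups, and *Aldh1a1*, which moved in both directions, were chosen for their values. The windows below have the core in capitals and are read on the gene's strand, at chr13:113046389-113046437 (-) for *Gpx8* and chr19:20492389-20492445 (+) for *Aldh1a1*.
Gpx8: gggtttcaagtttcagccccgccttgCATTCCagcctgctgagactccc
Aldh1a1: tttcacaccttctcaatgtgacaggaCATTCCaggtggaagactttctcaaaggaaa
The cores begin 23 and 168 bases before the start sites. The AP-1 letters TGANTCA, which can overlap the antioxidant core, occurred in 12.5% of the 112 promoters and 7.81% of all, and the aryl hydrocarbon receptor core GCGTG in 31.2% and 32.4%. Whether any of these sites is bound was not tested.

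The knockout groups were also compared with each other. Labelled *Rasa1*-KO was above *Nf2*-KO for 17 enzyme genes and below for 2, or 15.6% and 1.83%, beside 1.92% and 1.74% of all genes. The largest differences that passed the test were those of *Sult1d1*, given above, *Aldh1a7* at 1.89 ± 0.31 (adjusted p = 0.007), *Ces2a* at 1.66 ± 0.39 (adjusted p = 0.037), *Ces2c* at 1.61 ± 0.31 (adjusted p = 0.016) and *Aldh1a1* at 1.61 ± 0.12 (adjusted p = 8.7e-05). *Aldh1l2* and *Cyp4v3*, a fatty acid hydroxylase, were the 2 genes below, by 1.06 ± 0.11 and 0.74 ± 0.14 (adjusted p = 4.2e-04 and 0.016). Without the 2 libraries that stood apart, which belong to neither group but enter the shared estimate of the spread, 45 were above and 11 below, beside 8.76% and 10.5% of all genes. With 1 library left out the number called was 8 to 10 for the libraries of these 2 groups, and 40 without the unnumbered control library. By the study's rule 7 enzyme genes were called, all higher, beside 1.29% of all genes.

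Labelled double-KO was above *Nf2*-KO for 43 enzyme genes and below for 11, or 39.4% and 10.1%, beside 16.9% and 15.3% of all genes. Its excess was 4.76 ± 0.13 (SE) for *Aldh1a1*, 3.85 ± 0.41 for *Sult1a1*, 3.75 ± 0.30 for *Gsta3* and 3.19 ± 0.15 for *Ces2g* (adjusted p = 5.8e-09, 3.4e-05, 3.8e-06 and 8.3e-08). It was below *Nf2*-KO by 3.80 ± 0.29 for *Fmo1*, 3.68 ± 0.12 for *Aldh1l2* and 2.25 ± 0.12 for *Gpx8* (adjusted p = 2.7e-06, 6.5e-09 and 1.7e-07). Against labelled *Rasa1*-KO it was above for 32 and below for 14, or 29.4% and 12.8%, beside 16.3% and 14% of all genes. *Aldh1a1* led the first with 3.15 ± 0.12 (adjusted p = 4.0e-08), followed by *Ces2g* with 3.00 ± 0.15 (adjusted p = 2.1e-07), and *Fmo1* the second with a difference of -4.38 ± 0.29 (adjusted p = 2.0e-06). By the study's rule these comparisons called 23 and 15 enzyme genes, 19 and 11 of them higher, beside 7.69% and 5.66% of all genes.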

How the data were processed

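RNA of 12 libraries was sequenced on a NovaSeq instrument after rRNA removal and stranded library preparation. Per the labels, the authors used Trimmomatic 0.38 for trimming, HISAT2 2.1.0 for alignment to mm10, SAMtools 1.9 and, for RefSeq genes, StringTie 2.1.3b, leaving out genes with a count of 0. They deposited raw counts per gene, which were tested here, and FPKM, counts scaled by length and mapped reads, which served to compare levels between genes. Deposited TPM, normalised log values and fold changes with p-values were not used.

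Counts were fitted in edgeR 4.0.16 (R 4.3.3) with filterByExpr, TMM factors between 0.946 and 1.15, and 1 quasi-likelihood fit over the 4 groups. P-values were adjusted by Benjamini-Hochberg over 18053 genes and called under 0.05. A log2 fold change is given with its standard error, the size of the change divided by the root of F. With 3 libraries a group, the median standard error for the 109 genes was 0.235 in *Nf2*-KO against control. Pairs of libraries of a group all differed by more than sampling noise. Alternatives were DESeq2 1.42.0, limma 3.58.1 on log2(FPKM + 1) and log2(FPKM + 0.1), other filters and size factors, replicate blocks, the fit of only the groups compared and each library left out. By the table names, 1 control and 1 labelled double-KO library share the lack of a number, and 2 pairs share a number. The deviations of these pairs correlated at 0.626, 0.313 and 0.444 across genes. Crossed numbered pairs correlated at 0.258 and 0.399. The deviations of a group's libraries add up to about 0, so the pair without numbers also raises the values of the numbered ones. Between control and *Nf2*-KO or labelled *Rasa1*-KO, tables of the same number correlated at -0.053 to 0.17. The numbers are therefore not shown to pair libraries, and calls gained under the block by table names rest on a pairing that is not shown.

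Named genes were *Fmo2* and the 5 single genes, the 2 most abundant of each family, in each comparison the 6 largest rises and 6 largest falls among called genes at a mean of at least 0.5 FPKM, and the 10 with the smallest adjusted p over the 4 groups. Genes named beside these were chosen after their values were seen, and the members and lists were chosen with earlier results of these data known. Positions and promoters are from RefSeq (GRCm38.p6), which gave a position for 109 genes and a promoter for 93. The counts cover counting and library error only.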

Additional observations from a re-analysis of the deposited data

Results flagged for a closer look

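A pair of genes had opposite changes against control in different knockout groups, and the direct difference between those groups passed the test as well. *Aldh1a1* had log2 fold changes of -3.91 in *Nf2*-KO and -2.30 in labelled *Rasa1*-KO but rose by 0.85 in labelled double-KO. Labelled double-KO was above *Nf2*-KO by 4.76 (edgeR adjusted p = 5.8e-09) and above labelled *Rasa1*-KO by 3.15 (adjusted p = 4.0e-08), with 3 of 3 libraries higher in both. *Fmo1* rose by 1.11 in *Nf2*-KO and 1.70 in labelled *Rasa1*-KO and fell by 2.68 in labelled double-KO. Its difference between labelled double-KO and *Nf2*-KO was -3.80 (adjusted p = 2.7e-06), and that between labelled double-KO and labelled *Rasa1*-KO was -4.38 (adjusted p = 2.0e-06). When only control and labelled double-KO were fitted, neither gene's change in labelled double-KO passed the test (adjusted p = 0.095 for *Aldh1a1* and 0.073 for *Fmo1*). The *Nf2* transcript is low in the same 6 libraries in which *Aldh1a1* was low and *Fmo1* high, and the labels of 2 groups go against it. These libraries also belong to the groups whose table names carry the numbers 1, 2 and 3. The cause of these opposite changes was not tested.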

How the results depend on the processing

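Under the alternatives tried, 2235 of 2457 values of named genes kept their direction and their side of the threshold, 201 lost and 8 gained a call, and 13 changed sign. The 13 were of genes that were not called. *Nqo1* was -0.0063 in labelled Rasa1-KO with the replicate block by table names, and in labelled double-KO -0.14 with the replicate block and from -0.031 to 1.04 with 1 library left out, the lowest without the unnumbered control library. *Srxn1* in labelled Rasa1-KO was 0.0103 with the replicate block, 0.11 with the block by table names, 0.16 without both libraries that stood apart, and it ranged from -0.12 to 0.16 with 1 library left out. In labelled double-KO it was 0.045 with the block, 0.10 without both and -0.13 to 0.14 with 1 library left out. The highest values were those without the unnumbered control library. *Nf2* in labelled double-KO against control ranged from -0.028 to 0.072 with 1 library left out.

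The counts of genes called moved most in the comparisons with few calls. In labelled double-KO against control 23 became 3 with only the groups compared, 10 with the replicate block, 38 with the block by table names, 46 without both libraries that stood apart and 13 to 45 with 1 library left out, the last without the unnumbered control library. The calls over all genes moved with them, from 1166 to 18, 501, 2501, 5433 and between 487 and 5477. In labelled Rasa1-KO against Nf2-KO 19 became 29 in DESeq2, 63 with only the groups compared, 7 with the block, 35 with the block by table names, 56 without both and 8 to 40 with 1 library left out, at most 10 without a library of these 2 groups and 40 without the unnumbered control library. Over all genes, 661 became 1465, 4527, 227, 1563, 3494 and between 210 and 2220. With 1 library left out the count was 60 to 87 over the 4 groups, 53 to 74 in Nf2-KO, 50 to 69 in labelled Rasa1-KO, 45 to 68 between labelled double-KO and Nf2-KO and 29 to 60 between labelled double-KO and labelled Rasa1-KO, each highest without the unnumbered control library. Over all genes these ranges were 6916 to 12567, 5831 to 11197, 5583 to 10993, 4106 to 8627 and 3571 to 8436, also highest without that library. The study's rule gave 37, 28, 9, 7, 23 and 15 in the 6 comparisons. With both labels exchanged the count against control is 23 in Rasa1-KO and 56 in double-KO. Apart from the smaller number of libraries in some fits, the cause was not tested. The numbers in the titles did not pair libraries: deviations of control and labelled Rasa1-KO libraries of the same number correlated at 0.056, 0.16 and -0.045.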
